A study of Mus musculus with 11 samples.

Results

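The genes described here belong to the NF-kB and TNF receptor pathway, and they were taken by name from a list of 10 genes: Birc3, Nfkb1, Nfkb2, Relb, Nfkbia, Tnfaip3, Tnfaip2, Icam1, Tnfrsf12a and Tnfrsf1b. Of these, 8 had a row among the 24914 rows of each count file. Nfkb2 and Tnfrsf12a were not analysed here. In the knockout kidneys given PBS all 8 genes had a higher mean than in the heterozygous kidneys, by 1.08-fold to 1.60-fold. Over all loci tested 46.5% were higher. For Birc3, Relb, Tnfaip3 and Icam1 the libraries of the 2 groups did not overlap, against 3.55% of loci higher without overlap. The genes were picked with earlier results known, so these counts are no test of the pathway. No gene of the 8 passed the adjusted test in edgeR in any comparison. Between the 2 groups of knockout kidneys all 8 overlapped, as did most loci: 2.34% were higher and 1.95% lower without overlap.

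RNA of whole kidney was profiled in 129X1/SvJ mice at 5.5 weeks of age. There were 4 Col4a3 -/- kidneys treated with antimiR-21 (KO antimiR-21), 4 Col4a3 -/- kidneys treated with PBS (KO PBS) and 3 Col4a3+/- kidneys treated with PBS (HET PBS). Mice without Col4a3 are a model of Alport syndrome, an inherited disease of the glomerular basement membrane, and antimiR-21 is an inhibitor of the microRNA miR-21. The HET PBS kidneys carry the targeted allele too, in 1 copy, and wild-type kidneys were not analysed here. The labels give neither the dose nor the schedule of the treatment, and they do not say that each library came from its own animal, so p-values measure the spread between these libraries.

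NF-kB is a family of dimeric transcription factors that inhibitor proteins hold in the cytoplasm. Signals from TNF receptors and related receptors destroy the inhibitor, and the dimers then enter the nucleus and switch on genes of inflammation, adhesion and survival. Several of those genes encode the brakes of the same pathway, so the messenger levels of Nfkbia and Tnfaip3 are widely used as readouts of it. A slower, non-canonical arm works through RelB and the product of Nfkb2. In kidney disease the pathway is studied in tubule cells, endothelium and infiltrating leukocytes.

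Promoter sequences, each of 250 bases before and 50 bases after a RefSeq gene start on GRCm38.p6, were at hand for 6 of the 8 measured genes (Tnfrsf1b, Nfkbia, Tnfaip3, Birc3, Tnfaip2 and Icam1). The 10-base NF-kB consensus (3 G, a purine, any base, A or T, 2 pyrimidines and 2 C) was searched on both strands, with overlapping matches counted. It occurred in a promoter of 2 of these 6 genes, the 2 feedback inhibitors, against 5.1% of all 27025 genes in the table and 4.5% of all 32851 promoters. The sequences below show those matches in capitals, written 5′ to 3′ in the direction of the gene. That of Nfkbia is chr12:55492598-55492897 on the minus strand, with 1 match that starts at base 222 of the window and reads on the opposite strand. That of Tnfaip3 is chr10:19015361-19015660 on the minus strand, with 1 match on the given strand from base 126 and 1 on the opposite strand from base 239. The other promoter of Tnfaip3 in the table, and those of Tnfrsf1b, Birc3, Tnfaip2 and Icam1, did not hold these letters in this window.
Nfkbia: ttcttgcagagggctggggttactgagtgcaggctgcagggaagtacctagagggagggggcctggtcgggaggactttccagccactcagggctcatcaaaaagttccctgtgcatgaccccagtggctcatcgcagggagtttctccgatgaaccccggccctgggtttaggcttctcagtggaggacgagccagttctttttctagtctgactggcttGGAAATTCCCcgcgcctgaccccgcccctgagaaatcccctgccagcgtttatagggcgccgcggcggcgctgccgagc
Tnfaip3: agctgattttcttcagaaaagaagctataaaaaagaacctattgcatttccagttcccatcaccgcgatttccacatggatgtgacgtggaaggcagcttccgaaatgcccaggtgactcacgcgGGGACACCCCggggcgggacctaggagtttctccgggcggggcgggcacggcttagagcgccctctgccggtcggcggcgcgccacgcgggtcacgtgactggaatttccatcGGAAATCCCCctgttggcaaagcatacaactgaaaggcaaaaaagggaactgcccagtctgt

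Some facts of the whole series bear on every value below. Counts per library ran from 17.9 to 39.7 M after rows with identical counts were joined, and levels are given as CPM, counts scaled to an equal library size with TMM factors, and 14380 loci were tested. Col4a3 carried the same counts as its neighbour Col4a4, and the joint locus stood at 515 to 809 CPM in KO antimiR-21, 607 to 997 CPM in KO PBS and 870 to 1271 CPM in HET PBS, so the genotypes overlapped and the locus does not check the labels. Summed proximal tubule markers lay between 5827 and 7380 CPM in all 11 libraries, and 6 markers of other organs together reached at most 4.62 CPM. Ddx3y of the Y chromosome stood at 89.7 to 109 CPM in 1 of 4 KO antimiR-21, 2 of 4 KO PBS and 2 of 3 HET PBS libraries. The other 6 libraries had no more than 0.172 CPM. The labels give no sex. In whole tissue, fewer cells of a type and less RNA per cell cannot be told apart.

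Per length of annotated exons, Nfkbia had the highest mean level of the 8 genes in all 3 groups. In HET PBS the mean level per kilobase was 22.9 ± 7.93 CPM for Nfkbia, 11.7 ± 2.04 for Tnfaip2, 4.82 ± 0.552 for Nfkb1, 4.31 ± 0.446 for Icam1, 3.005 ± 0.480 for Birc3, 2.79 ± 0.374 for Relb, 1.42 ± 0.124 for Tnfaip3 and 1.27 ± 0.559 for Tnfrsf1b (SD, n = 3). The neighbours Nfkb1 and Icam1, Birc3 and Relb, and Tnfaip3 and Tnfrsf1b lay within their spread of each other. Exon lengths come from GENCODE vM21, and the gene models behind the counts are not known here.

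Tnfrsf1b encodes the TNF receptor found mostly on leukocytes and endothelium, and it is the only receptor among the measured genes. It lies on chromosome 4 from 145213463 to 145246870 (GRCm38, minus strand). Its level was 9.07, 9.28, 7.80 and 6.42 CPM in KO antimiR-21, 11.3, 5.11, 6.56 and 7.06 CPM in KO PBS and 7.21, 3.05 and 4.31 CPM in HET PBS. The first HET PBS library lay inside the range of both knockout groups and the other 2 lay below all knockout libraries. The log2 difference was 0.64 (SE 0.315, edgeR adjusted p = 0.756) for KO PBS against HET PBS and 0.75 (SE 0.317, adjusted p = 0.59) for KO antimiR-21 against HET PBS. This gene had the fewest reads of the 8, between 97 and 246.5 counts a library, and at 97 counts the counting error alone is 10.2%. Without the first HET PBS library those differences were 1.04 and 1.15, and without HET PBS replicate 2 they were 0.39 and 0.50. Without the first KO PBS library the difference of KO PBS from HET PBS was 0.37.

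Of the NF-kB subunits, 2 were measured. Nfkb1 encodes the precursor of a DNA-binding subunit of the canonical dimer and lies on chromosome 3 from 135584655 to 135691547 (minus strand). Nfkb1 stood at 66.2, 68.2, 71.1 and 54.9 CPM in KO antimiR-21, 78.4, 60.7, 56.4 and 55.0 CPM in KO PBS and 65.3, 56.9 and 52.2 CPM in HET PBS. The 3 groups overlapped widely, and Nfkb1 had the smallest difference of the 8 genes between KO PBS and HET PBS (log2 0.11, 95% interval -0.19 to 0.40, edgeR adjusted p = 0.893). Its sign turned without the first KO PBS library, to -0.02. Relb encodes the subunit that drives the non-canonical arm and is itself induced by NF-kB. The gene lies on chromosome 7 from 19606217 to 19629438 (minus strand). Relb stood at 15.1, 12.3, 16.6 and 11.9 CPM in KO antimiR-21, 22.7, 18.2, 12.7 and 15.2 CPM in KO PBS and 12.5, 9.72 and 10.4 CPM in HET PBS. All 4 KO PBS libraries were above all 3 HET PBS libraries, the lowest of them by a narrow margin, while KO antimiR-21 overlapped both groups. The log2 difference of KO PBS from HET PBS was 0.67 (SE 0.198, edgeR adjusted p = 0.508).

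Of the inhibitors, Nfkbia encodes IkB-alpha, the protein that holds NF-kB in the cytoplasm. The gene lies on chromosome 12 from 55489410 to 55492647 (minus strand). Its deposited counts were identical to those of Mir1198, a microRNA gene that GENCODE places on chromosome X, so the reads of the 2 names could not be told apart and entered once. Nfkbia stood at 67.3, 49.3, 48.3 and 45.6 CPM in KO antimiR-21, 48.7, 46.7, 36.6 and 42.0 CPM in KO PBS and 51.3, 32.1 and 27.1 CPM in HET PBS. The first HET PBS library was above every KO PBS library, and the other 2 were below all 8 knockout libraries. The log2 difference was 0.52 (SE 0.209, edgeR adjusted p = 0.59) for KO antimiR-21 against HET PBS and 0.24 (SE 0.208, adjusted p = 0.844) for KO PBS against HET PBS. Without the first HET PBS library those differences were 0.83 and 0.55, and without HET PBS replicate 3 they were 0.33 and 0.07. Without HET PBS replicate 2 the difference of KO PBS was 0.16.

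Tnfaip3 encodes a ubiquitin-editing enzyme that shuts off signalling from TNF receptors. It lies on chromosome 10 from 19000910 to 19015657 (minus strand). Tnfaip3 stood at 16.4, 14.8, 14.3 and 13.4 CPM in KO antimiR-21, 19.6, 13.5, 11.5 and 15.0 CPM in KO PBS and 11.2, 9.99 and 9.51 CPM in HET PBS. Each of the 8 knockout libraries was above each HET PBS library, the closest by 11.5 against 11.2 CPM. The log2 difference from HET PBS was 0.52 in KO antimiR-21 (SE 0.167, edgeR adjusted p = 0.546) and 0.54 in KO PBS (SE 0.166, adjusted p = 0.516).

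Birc3 encodes a ubiquitin ligase that binds TNF receptor complexes and restrains cell death, and it is a target of NF-kB. It lies on chromosome 9 from 7848699 to 7873186 (minus strand). Birc3 stood at 22.4, 22.7, 22.9 and 18.8 CPM in KO antimiR-21, 31.7, 21.4, 19.2 and 23.7 CPM in KO PBS and 17.2, 12.4 and 15.6 CPM in HET PBS. All 8 knockout libraries were above all 3 HET PBS libraries. The log2 difference of KO PBS from HET PBS was 0.68 (1.60-fold, SE 0.172, edgeR adjusted p = 0.431), the smallest p of the 8 genes in that comparison, and that of KO antimiR-21 from HET PBS was 0.53 (SE 0.172, adjusted p = 0.552). DESeq2 gave Birc3 an adjusted p of 0.0428 for KO PBS against HET PBS, a comparison in which DESeq2 called 84 loci and edgeR 0. By edgeR the p of Birc3 ranked 67 among the 14380 loci.

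Icam1 encodes the adhesion molecule to which leukocyte integrins bind. The gene lies on chromosome 9 from 21015985 to 21028817 (plus strand). Icam1 stood at 22.3, 27.0, 24.3 and 26.1 CPM in KO antimiR-21, 38.6, 26.0, 21.6 and 24.3 CPM in KO PBS and 19.7, 20.04 and 16.5 CPM in HET PBS. All 8 knockout libraries were above the highest HET PBS library, and the first KO PBS library stood apart from the other 10. The log2 difference from HET PBS was 0.41 in KO antimiR-21 (SE 0.177, edgeR adjusted p = 0.599) and 0.56 in KO PBS (SE 0.177, adjusted p = 0.536). Without the first KO PBS library the second of these was 0.35.

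Tnfaip2 is a TNF-induced gene of endothelium and myeloid cells whose product takes part in the formation of membrane protrusions. It lies on chromosome 12 from 111442469 to 111455018 (plus strand). Tnfaip2 stood at 62.3, 65.3, 83.0 and 53.9 CPM in KO antimiR-21, 88.8, 61.5, 69.0 and 88.5 CPM in KO PBS and 70.0, 50.9 and 54.3 CPM in HET PBS. The first HET PBS library lay within the range of both knockout groups. The log2 difference of KO PBS from HET PBS was 0.40 (SE 0.174, edgeR adjusted p = 0.696).

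**Figure D1:**
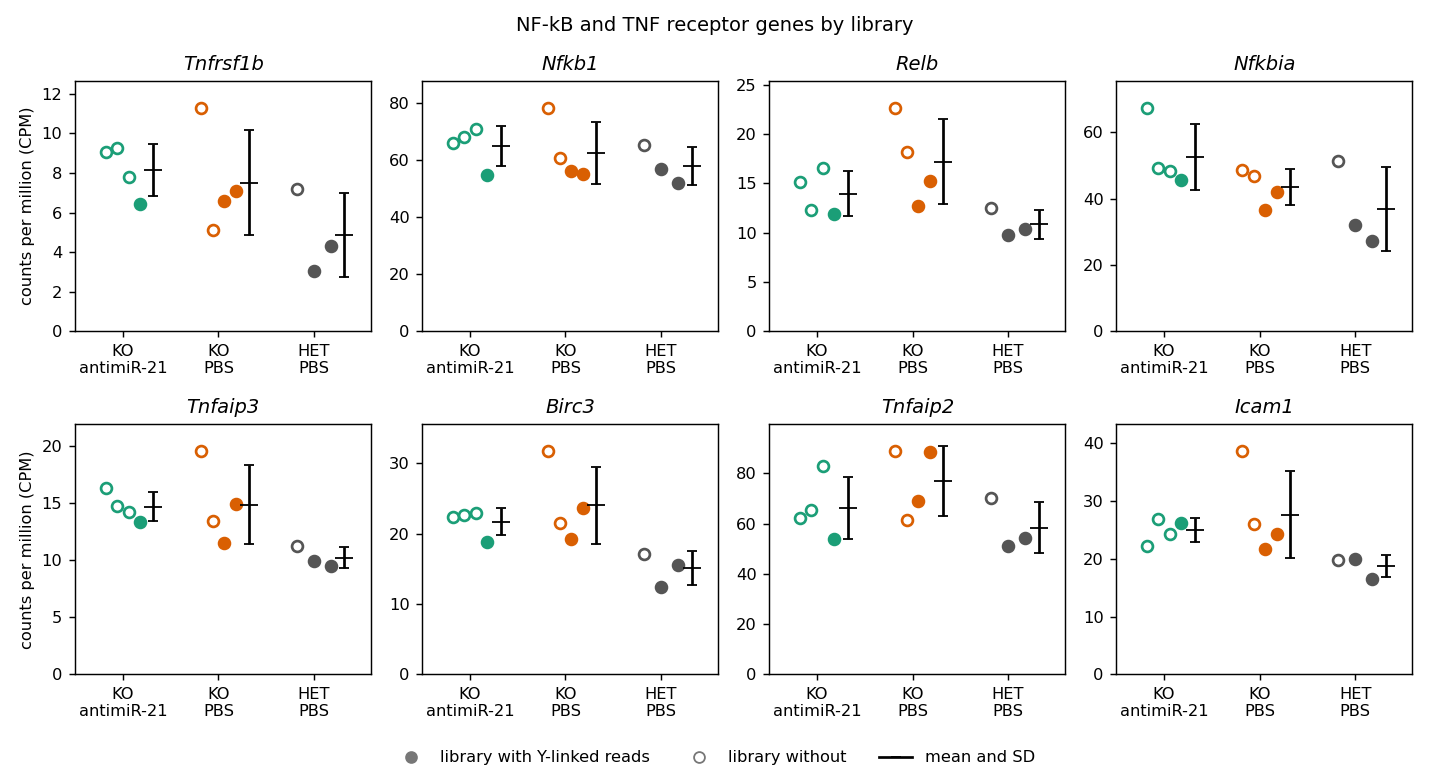
Level of each gene in CPM (vertical axis, from 0) in the 4 KO antimiR-21, 4 KO PBS and 3 HET PBS libraries, with the mean and SD of each group as a bar; filled points are libraries with Y-linked reads. For Birc3, Tnfaip3 and Icam1 all 8 knockout libraries lie above the 3 HET PBS libraries, and 1 KO PBS library is the highest in 7 of the 8 panels. The share of all loci for which that library is highest was not computed.

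KO PBS was set against HET PBS to ask what loss of the second Col4a3 allele does to these genes. All 8 genes had a positive log2 difference, with a median of 0.55 and a range of 0.11 to 0.68, beside a median of -0.015 over all loci and 46.5% of loci with a positive difference. Without the first KO PBS library the median of the 8 genes was 0.36. By edgeR 0 of the 8 passed at an adjusted p under 0.05, as did 0.0% of all loci. At an unadjusted p under 0.05, 5 of 8 were higher (Birc3, Relb, Tnfaip3, Icam1 and Tnfaip2), against 4.21% of loci, and 0 of 8 were lower, against 2.73%. DESeq2 called 1 of the 8 (Birc3) and 84 of all loci tested, where edgeR called 0 loci. Of the 8, limma-voom called 0 and limma on the authors' log2 matrix called 0, with 0 and 1 of all loci. In 4 of 8 genes the KO PBS libraries were all above the HET PBS libraries, against 3.55% of loci, and in 0 of 8 all below, against 3.21%. The count was also 4 without the first KO PBS library, against 4.03% of loci, and 7 without the first HET PBS library, against 11.9%. These 8 genes were picked with earlier results of this comparison known, and they share libraries, so neither count is a test of the pathway.

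KO antimiR-21 was set against HET PBS in the same fit, with the same 3 HET PBS libraries. Again all 8 genes had a positive difference, with a median of 0.46, against a median of 0.00 over all loci and 49.5% of loci with a positive difference. By edgeR 0 of 8 passed, against 0.00695% of loci. At an unadjusted p under 0.05, 5 of 8 were higher (Tnfaip3, Birc3, Nfkbia, Tnfrsf1b and Icam1), against 5.04% of loci, and 0 of 8 were lower, against 3.01%. DESeq2 and limma-voom called 0 of 8, with 74 and 0 of all loci. The ranges did not overlap in 3 of 8 genes (Birc3, Tnfaip3 and Icam1), against 3.88% of loci higher in this way and 2.1% lower, and in 6 of 8 without the first HET PBS library, against 13.9% of loci. With all 8 knockout libraries set against the 3 HET PBS libraries, those 3 genes were again without overlap, against 1.23% of loci (1.27% without the first KO PBS library) higher and 0.369% lower, and without the first HET PBS library 6 of 8 were, against 6.88%. All 8 genes had a positive difference there, against 47.1% of loci, with a median of 0.50. In that comparison edgeR called 0 of 8 (0.0139% of loci), with 5 of 8 higher at an unadjusted p under 0.05 against 4.99% of loci and 0 lower against 2.4%. DESeq2 called 1 of 8 (Birc3) and 103 of all loci tested, and limma-voom called 0 of both.

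KO antimiR-21 was set against KO PBS to ask what the inhibitor changes in the knockout kidney. Here 3 genes had a positive difference and 5 a negative one, with a median of -0.08 beside 0.00 over all loci and 50.9% of loci with a positive difference. By edgeR 0 of 8 passed (0.0% of loci) and 0 of 8 had an unadjusted p under 0.05 (4.76% of loci higher and 3.46% lower). DESeq2 and limma-voom called 0 of the 8, with 138 and 0 of all loci. The ranges of all 8 genes overlapped, as did those of most loci: 2.34% were higher and 1.95% lower without overlap. Without the first KO PBS library 0 of 8 were higher without overlap, against 4.34% of loci. Relb had a difference of -0.30 (95% interval -0.70 to 0.10, edgeR adjusted p = 0.733). Without the first KO PBS library it was -0.14. Nfkbia had a difference of 0.28 (95% interval -0.14 to 0.70, edgeR adjusted p = 0.775), which was 0.13 without the first KO antimiR-21 library, and Tnfrsf1b one of 0.12, which was 0.38 without the first KO PBS library and -0.03 without KO PBS replicate 2. For Tnfaip3 the difference was -0.02 with an interval of -0.35 to 0.32, so a change of up to 1.24-fold upward or to 0.784 of the KO PBS level was within reach of the error. Without the first KO PBS library the median turned to 0.10, and the differences of Birc3, Tnfaip3 and Icam1 turned to 0.02, 0.14 and 0.06.

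**Figure D2:**
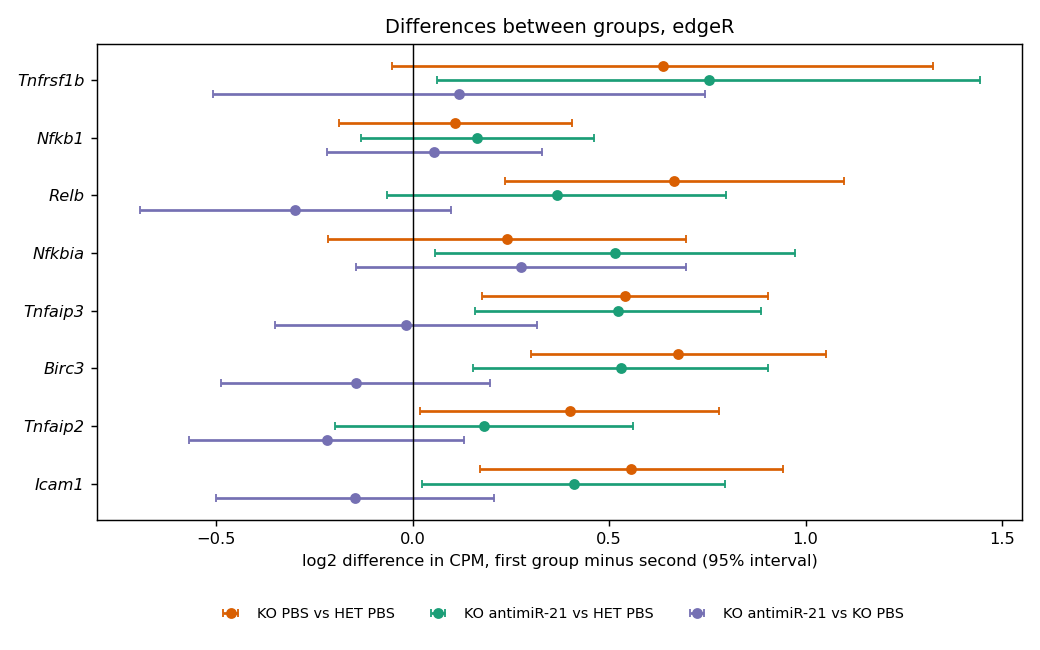
Log2 difference of CPM (horizontal axis) with its 95% interval from edgeR for each gene in 3 comparisons, first-named group minus second. The points of both comparisons with HET PBS lie right of 0 for all 8 genes, from 0.11 to 0.75, while those of KO antimiR-21 against KO PBS scatter from -0.30 to 0.28 and all their intervals include 0.

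The levels of the 8 genes were positively correlated over the libraries. Over the 11 libraries the 28 pairwise Pearson correlations of log2 CPM ran from 0.37 (Nfkbia with Tnfaip2) to 0.93 (Birc3 with Tnfaip3), with a median of 0.70, given as a description since the points share libraries and groups. The same correlations were not computed for pairs of other loci, so they do not show a trait of the pathway. The first KO PBS library was the highest of all 11 for 7 of the 8 genes, and the first KO antimiR-21 library was the highest for Nfkbia. The lowest of all 11 was always HET PBS replicate 2 or 3, for 4 genes each. Within HET PBS the first library was the highest of its 3 for 7 genes. Within KO antimiR-21 replicate 4 was the lowest of its 4 for 7 genes. The shares of all loci for which these libraries were highest or lowest were not computed. These counts therefore describe the libraries and are no result about the 8 genes. The SD of the 8 genes was 8.28% to 18.9% of the mean in KO antimiR-21, 12.4% to 35.4% in KO PBS and 8.74% to 44.0% in HET PBS.

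The levels of these genes were also set beside Y-linked status. The first HET PBS library is the one of its group without Y-linked reads, and KO antimiR-21 replicate 4 is the one of its group with them. KO PBS did not follow Y-linked status in all genes. Its replicate 2, without these reads, was below its replicate 4, with them, for Birc3, Tnfaip3, Tnfaip2 and Tnfrsf1b. For Nfkb1, Relb, Nfkbia and Icam1 replicate 2 was above replicate 4. Y-linked reads were present in 1 library of KO antimiR-21, 2 of KO PBS and 2 of HET PBS. In that subset the differences of KO PBS from HET PBS ran from 0.03 to 0.89, with a median of 0.45. In the libraries without them (3 of KO antimiR-21, 2 of KO PBS and 1 of HET PBS) they ran from -0.10, for Nfkbia, to 0.70, with a median of 0.30. That subset rests on 1 HET PBS library. The difference of KO antimiR-21 from HET PBS had medians of 0.44 and 0.24 in these 2 subsets, and that of KO antimiR-21 from KO PBS -0.05 and -0.10. Birc3 differed between KO PBS and HET PBS by 0.61 with Y-linked reads and 0.60 without, and Tnfaip3 by 0.43 and 0.53. Tnfrsf1b differed by 0.89 and 0.08, and Tnfaip2 by 0.57 and 0.08. With Y-linked status as a term in the edgeR fit the lowest adjusted p of the 8 genes for KO PBS against HET PBS was 0.174, for Birc3 (log2 difference 0.63).

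Sums of cell type markers were set beside these genes as well. The 10 leukocyte genes with counts of their own, Ptprc, Lyz2 and Cd14 among them, summed to 160 to 176 CPM in KO antimiR-21, 108 to 232 CPM in KO PBS and 65.0 to 114 CPM in HET PBS. None was at 0 in every library. Of the 9 that were tested, all 9 had a positive difference in KO PBS against HET PBS (median 0.67) and 0 passed the edgeR test, with 5 at an unadjusted p under 0.05. Over all loci 46.5% had a positive difference and 4.21% were higher at that unadjusted p. The 10 genes of injured tubule, Havcr1, Lcn2 and Vcam1 among them, summed to 2507 to 3215 CPM in KO antimiR-21, 1892 to 7641 CPM in KO PBS and 1062 to 2481 CPM in HET PBS. Spp1, which encodes osteopontin, made up 70.6% to 88.6% of that sum in each library, and the other 9 genes summed to 493 to 570 CPM in KO antimiR-21, 498 to 874 CPM in KO PBS and 312 to 471 CPM in HET PBS. Those 9 include Lcn2 and Vcam1, which the wider list below also holds as reported targets of NF-kB. All 10 had a positive difference in KO PBS against HET PBS (median 1.30), with 0 past the test and 7 at an unadjusted p under 0.05, against the same shares of all loci. The 8 endothelial genes, Pecam1 and Cdh5 among them, summed to 786 to 974 CPM in KO antimiR-21, 797 to 870 CPM in KO PBS and 658 to 1009 CPM in HET PBS, with a median difference of 0.02 between KO PBS and HET PBS. The part of these cells in the differences above was not tested.

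When the log2 CPM of each of the 8 genes was standardised over the libraries and averaged, this mean was -0.29 to 0.59 in KO antimiR-21, 1.63 in the first KO PBS library and -0.36 to 0.28 in the other 3, and -0.14, -1.35 and -1.36 in the HET PBS libraries. Over the 11 libraries its Pearson correlation with the log2 sum of markers was 0.93 for fibroblasts, 0.92 for leukocytes and 0.90 for injured tubule (0.88 without Spp1). The correlation was 0.79 for distal nephron, 0.79 for podocytes, 0.47 for endothelium and -0.73 for proximal tubule. Over the 10 libraries left without the first KO PBS library it was 0.88 for fibroblasts, 0.90 for leukocytes, 0.87 for podocytes and 0.83 for injured tubule (0.79 without Spp1). For distal nephron it was then 0.71, for endothelium 0.59 and for proximal tubule -0.54. These are descriptions over libraries that also differ by group and Y-linked status. KO antimiR-21 replicate 4, with the lowest mean of its group, also had the lowest sum of its group for injured tubule, endothelium, fibroblasts, podocytes, proximal tubule and distal nephron. Its leukocyte sum of 173 CPM was in the middle of the group.

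**Figure D3:**
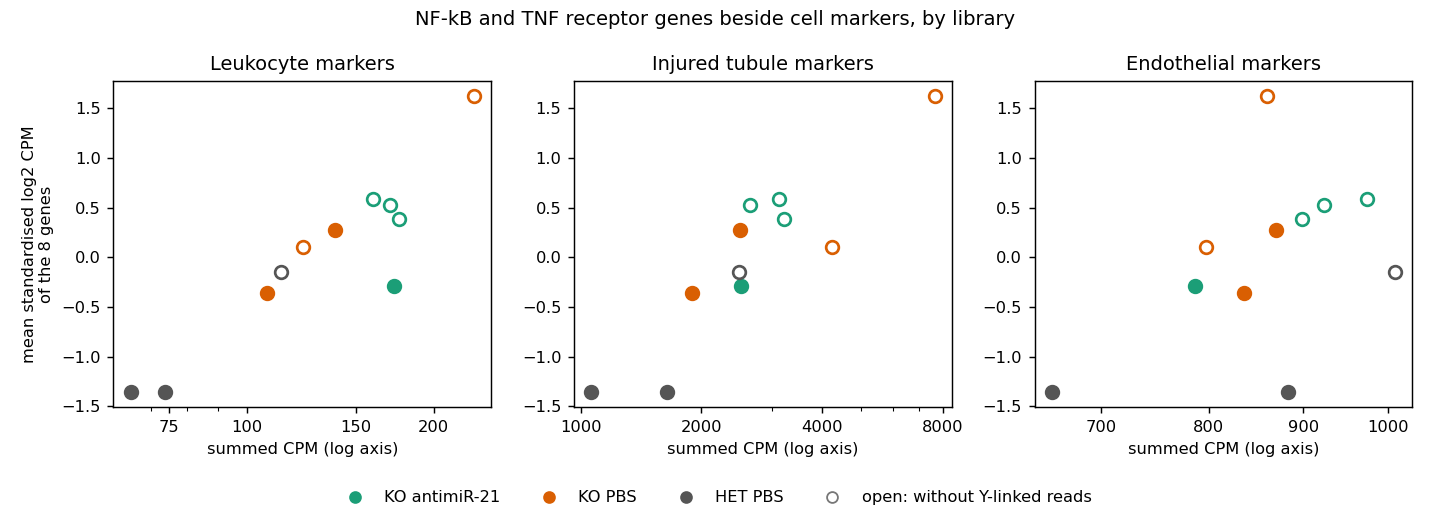
Mean standardised log2 CPM of the 8 genes (vertical axis) against the summed CPM of 10 leukocyte, 10 injured tubule and 8 endothelial markers (horizontal log axes) in 11 libraries, coloured by group, with open points for libraries without Y-linked reads. The first KO PBS library is at the top right of the leukocyte panel (232 CPM) and of the injured tubule panel (7641 CPM), and HET PBS replicates 2 and 3 are at the lower left of both.

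The 5 loci whose log2 CPM was most like that mean over the 11 libraries were Mmp14 (r = 0.98), a membrane-bound matrix metalloprotease, Gpr35 (0.98), a G protein-coupled receptor, Slc25a24 (0.98), a mitochondrial carrier of ATP, Cmtm3 (0.97), a membrane protein gene of the chemokine-like factor family, and Thbs2 (0.97), which encodes the matrix protein thrombospondin-2. Mmp14 stood at 24.3, 27.1, 29.4 and 17.0 CPM in KO antimiR-21, 40.3, 22.04, 19.6 and 23.4 CPM in KO PBS and 21.4, 13.1 and 12.4 CPM in HET PBS. It shared with the 8 genes the high first KO PBS library, the low HET PBS replicates 2 and 3 and the low KO antimiR-21 replicate 4.

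A wider list of 98 other genes of the pathway was drawn up with earlier results known, and 95 of them had a row and 85 loci were tested. Some of these loci were joint with a gene outside the list, whose reads could not be told apart. They are Gm14023/Il1a, Plekhg6/Tnfrsf1a, Rhobtb2/Tnfrsf10b, Acaa1a/Myd88, Irak4/Pus7l, Fam3a/Ikbkg, Gm6537/Nfkbib, Hcst/Nfkbid, Jazf1/Tax1bp1, Il34/Sf3b3, Sod2/Wtap and Gpx3/Tnip1, the last at a mean of 19116 CPM. Joint loci were kept in the counts and medians below. Tnfsf12, Ripk1 and Tab1 were not analysed here. In KO PBS against HET PBS edgeR called 0 higher and 0 lower, with 18 higher and 3 lower at an unadjusted p under 0.05, and 58 of 85 had a positive difference. Over all loci 4.21% were higher, 2.73% were lower and 46.5% had a positive difference. Reported targets of NF-kB had a median of 0.53 (24 loci, 9 higher at an unadjusted p under 0.05), ligands 0.39 (6 loci), the subunits Rela and Rel 0.29, receptors 0.15 (14 loci), inhibitors 0.01 (13 loci), and adaptors and kinases -0.01 (26 loci, 2 higher at an unadjusted p under 0.05), beside -0.015 over all loci tested. The class names are loose. Receptors include Il1rn, which encodes a receptor antagonist and had the largest difference of that class (2.17). Inhibitors include Bcl3 (0.53) and Nfkbiz (0.65), whose products do not act only as inhibitors. In KO antimiR-21 against HET PBS targets had a median of 0.54, ligands 0.59, and adaptors and kinases -0.07, with 0 of 85 past the test and 12 higher and 0 lower at an unadjusted p under 0.05, against 5.04% and 3.01% of all loci. In KO antimiR-21 against KO PBS targets had a median of -0.22, and 0 of 85 passed, with 4 higher and 6 lower at an unadjusted p under 0.05, against 4.76% and 3.46% of all loci, so the count of higher genes was near the background.

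The genes of that list with the smallest p in KO PBS against HET PBS were Lcn2, Nfkbie, Cxcl1, Ccl2, Cxcl10 and Vcam1. All 6 had KO PBS libraries above every HET PBS library, which their choice by p in this same comparison favours. Of the 85 tested loci of the list 14 were higher in this way and 2 lower, against 3.55% and 3.21% of all loci. Nfkbie, which encodes IkB-epsilon, another inhibitor of the family, stood at 13.9, 10.4, 9.78 and 9.32 CPM in KO PBS and 5.88, 6.48 and 6.40 CPM in HET PBS (log2 difference 0.79, SE 0.169, edgeR adjusted p = 0.368). In KO antimiR-21 it stood at 7.54, 7.51, 10.01 and 8.08 CPM, above every HET PBS library. Vcam1, the adhesion molecule to which very late antigen integrins bind, stood at 85.4, 39.3, 25.6 and 31.0 CPM in KO PBS and 23.9, 10.2 and 13.2 CPM in HET PBS (1.53, SE 0.417, adjusted p = 0.459). Its mean in KO PBS rests largely on the first library. Ccl2, the monocyte chemoattractant, stood at 8.996, 4.71, 1.85 and 2.601 CPM in KO PBS and 0.472, 0.659 and 1.60 CPM in HET PBS (2.33, SE 0.616, adjusted p = 0.456). Cxcl10, a chemokine for T cells, stood at 19.0, 13.6, 5.15 and 7.03 CPM in KO PBS and 4.38, 3.02 and 4.18 CPM in HET PBS (1.54, SE 0.422, adjusted p = 0.456).

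For KO antimiR-21 against HET PBS the list was led by Lcn2, Cd83, Cxcl1, Tnfsf13b, Ier3 and Ccl2. Cd83, a gene of activated dendritic cells and lymphocytes, averaged 4.50 ± 0.931 CPM in KO antimiR-21 (n = 4) and 2.37 ± 0.726 CPM in HET PBS (n = 3), without overlap (log2 difference 0.93, SE 0.286, edgeR adjusted p = 0.493). Tnfsf13b, which encodes the B cell survival factor BAFF, averaged 2.36 ± 0.586 and 1.06 ± 0.646 CPM in these groups, with overlap (1.18, SE 0.389, adjusted p = 0.552). Ier3, an early response gene that limits cell death, averaged 24.4 ± 2.45 and 17.8 ± 4.38 CPM, without overlap (0.46, SE 0.162, adjusted p = 0.564).

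For KO antimiR-21 against KO PBS it was led by Nos2, Tnfaip8, Tnfrsf21, the joint Acaa1a/Myd88 locus, Ninj1 and Traf3. Nos2, the inducible nitric oxide synthase, stood at 3.22, 2.71, 3.14 and 2.89 CPM in KO antimiR-21 and 4.13, 4.91, 4.63 and 4.81 CPM in KO PBS, without overlap (log2 difference -0.63, SE 0.143, edgeR adjusted p = 0.315). Tnfaip8, a TNF-induced gene whose product restrains apoptosis, stood at 594, 646, 338 and 589 CPM in KO antimiR-21 and 250, 325, 259 and 244 CPM in KO PBS (1.01, SE 0.262, adjusted p = 0.334). In HET PBS it stood at 485, 782 and 323 CPM, which spans the range of KO antimiR-21. Tnfrsf21, a death receptor gene of the TNF receptor family, stood at 704, 745, 272 and 690 CPM in KO antimiR-21, 375, 330, 228 and 283 CPM in KO PBS and 557, 590 and 414 CPM in HET PBS (0.99 for KO antimiR-21 against KO PBS, SE 0.282, adjusted p = 0.367). In both genes KO antimiR-21 replicate 3 stood apart from the other 3 and near the KO PBS libraries. The reads of Myd88, the adaptor of Toll-like receptors, could not be told apart from those of Acaa1a, a peroxisomal enzyme gene.

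**Figure D4:**
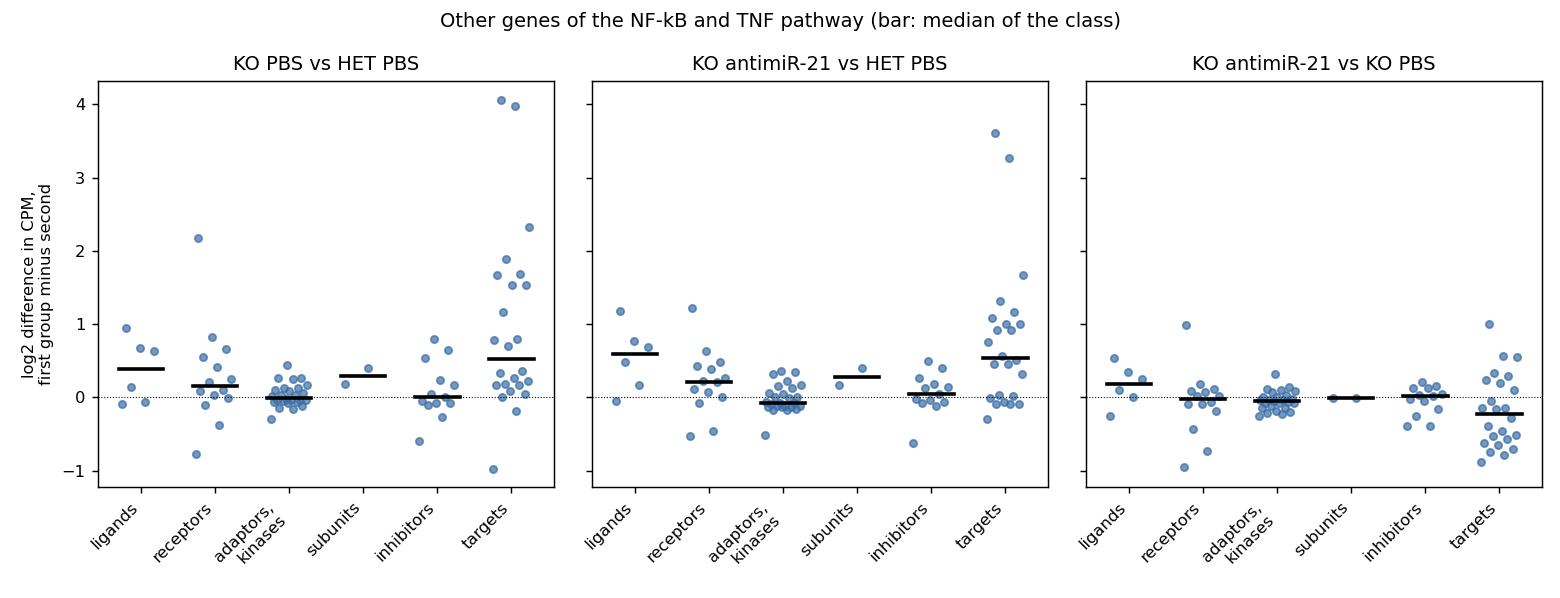
Log2 difference of CPM (vertical axis, first-named group minus second) of the 85 other tested loci of the pathway by class in 3 comparisons, each point a locus and each bar the median of its class. Some of these loci are joint with a gene outside the list. In KO PBS against HET PBS targets have a median of 0.53 and adaptors and kinases -0.01. In KO antimiR-21 against KO PBS the medians are -0.22 for targets, -0.05 for adaptors and kinases, -0.03 for receptors, -0.01 for subunits, 0.025 for inhibitors and 0.18 for ligands.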

How the data were processed

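RNA-seq libraries of whole kidney were prepared with a kit that does not mark strand, from 150 ng of RNA each, per the labels' protocols. Tools listed in the submitters' processing notes are STAR, HTSeq 0.5.4p5, SAMtools, FastQC and limma, with build mm10. Their settings and gene models are not known here. The authors deposited estimated counts, in steps of 0.5, and a log2 matrix that differs from log2 CPM of those counts by a constant in each library and served as an alternative.

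Rows with identical counts in all 11 libraries and a total of at least 50 were joined (1513 joint loci), a step chosen after seeing the data, and counts were rounded to whole numbers. Loci kept by filterByExpr (14380) were fitted with edgeR 4.0.16 in R 4.3.3 (TMM, quasi-likelihood, robust, 3 groups together, two-sided, Benjamini-Hochberg at 0.05). The code was tested on simulated data. Alternatives used limma 3.58.1, DESeq2 1.42.0, other filters and scalings, Y-linked status, a replicate block and leaving out libraries. Joint loci were left out of marker sums but kept in the wider pathway list. Coordinates and exon lengths are from GENCODE vM21 (GRCm38) and promoters from RefSeq (GRCm38.p6).

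The genes, lists and tests were chosen with earlier results of these data known. Named from the wider list were, in each comparison, the 6 loci with the smallest p and a mean of at least 1 CPM, and 5 loci were named for likeness to the mean of the 8 genes. Fits with Y-linked status but without KO PBS replicate 1, and counts of groups without overlap that leave out KO PBS replicate 1 or HET PBS replicate 1, and the injured tubule sum without Spp1 were chosen after seeing the data.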

Additional observations from a re-analysis of the deposited data

Results flagged for a closer look

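In each of 8 genes the KO antimiR-21 and KO PBS groups were searched for a library far from the other 3, and 2 of these 16 groups had one, where chance alone gives about 1 in 20 groups. Birc3 stood at 18.8 CPM in KO antimiR-21 replicate 4, below 22.4 to 22.9 CPM in the other 3, and that library is the one of its group with Y-linked reads. Nfkbia, whose reads cannot be told apart from those of Mir1198, stood at 67.3 CPM in the first KO antimiR-21 library, above 45.6 to 49.3 CPM in the other 3.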

How the results depend on the processing

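Over 696 combinations of a gene, a comparison and another setting, 679 kept the direction and the side of the adjusted threshold. The 696 include fits that left out a library of a group outside the comparison, in which the difference could hardly change. Birc3 in KO PBS against HET PBS, for example, stayed at 0.676 without KO antimiR-21 replicate 1. The share that held is therefore no measure of robustness. DESeq2 called Birc3, and so 1 of the 8 genes, in KO PBS against HET PBS and in all KO against HET PBS. The direction turned in 15 combinations, 13 of them in KO antimiR-21 against KO PBS. The turned values ran from -0.027 to 0.142, and none passed the test. For KO PBS against HET PBS these were values of Nfkb1 without KO PBS replicate 1, -0.019 (range with single libraries left out -0.019 to 0.20) and, with Y-linked status as a term too, -0.014. For KO antimiR-21 against KO PBS, Tnfaip3 turned to 0.004 with limma-voom, 0.00 with the replicate block and 0.001 on the authors' log2 matrix. Nfkb1 and Tnfrsf1b turned to -0.018 and -0.025 with Y-linked status. With Y-linked status and without KO PBS replicate 1, chosen after seeing the data, Tnfaip3 was 0.081, Icam1 0.036 and the median of the 8 genes 0.057. With single libraries left out, Birc3 ran from -0.239 to 0.017, Icam1 from -0.248 to 0.058, Nfkb1 from -0.002 to 0.18, Tnfaip3 from -0.12 to 0.14, Tnfrsf1b from -0.027 to 0.381 and the median from -0.18 to 0.10. For KO antimiR-21 against HET PBS the median was 0.35 with Y-linked status, 0.38 also without KO PBS replicate 1, and 0.33 to 0.54 with single libraries left out.

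Counts of all loci past the threshold moved with the setting. In edgeR they were 0 for KO PBS against HET PBS, 0 for KO antimiR-21 against KO PBS, 1 for KO antimiR-21 against HET PBS and 2 for all KO against HET PBS. In that order DESeq2 gave 84, 138, 74 and 103, limma-voom 0 in each, limma on the log2 matrix 1, 0, 2 and 3, Y-linked status as a term 3, 0, 2 and 4, and that term without KO PBS replicate 1 gave 6, 0, 12 and 11. With single libraries left out they ran from 0 to 2, 0 to 16 (16 without KO antimiR-21 replicate 3), 0 to 4 and 0 to 4. With the replicate number as a block they were 2, 26, 4 and 5, and 0 of the 8 genes passed. The labels do not say whether equal numbers pair the libraries. Correlations of same-numbered deviations from group means ran from -0.209 to 0.359 for KO antimiR-21 with KO PBS. For KO PBS with HET PBS they ran from -0.444 to 0.629. Of 4 KO antimiR-21 libraries, 2 were most like the KO PBS library of their own number. With 3 or 4 libraries a group these values cannot decide whether the libraries are paired. Depth limits Tnfrsf1b most. The causes of these shifts were not tested.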

Other observations

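Markers of fibroblasts were summed in the same libraries. The 6 fibroblast genes, Col1a1 and Pdgfrb among them, summed to 467 to 716 CPM in KO antimiR-21, 531 to 1021 CPM in KO PBS and 315 to 448 CPM in HET PBS, so that all 8 knockout libraries were above all 3 HET PBS libraries. Of all single loci 1.23% were higher in this way. All 6 had a positive log2 difference in KO PBS against HET PBS (median 0.90), against 46.5% of loci. Of the 6, 0 were past the edgeR test and 5 had an unadjusted p under 0.05, against 4.21% of loci higher at that p. Of the markers of other organs, Adipoq, a gene of fat cells, was the 1 above 1 CPM in any library.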
